A study of Mus musculus with 12 samples.

Results

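The hypertrophic zones of wildtype mice from the Schmid and the Cog breeding backgrounds were compared with each other. These were all 6 wildtype arrays of the 12 arrays in the series, 3 titled as wildtype growth plate of the Schmid background (here WtSch) and 3 of the Cog background (WtCog), with all 41174 probes that were not controls. Each array carried RNA of the tibial hypertrophic zone of one mouse at 14 days of age. WtSch mice were the wildtype littermates of Schmid mice, which carry the collagen X mutation p.Asn617Lys, and WtCog mice were those of Cog mice, which carry a thyroglobulin transgene with the cog mutation driven by the Col10a1 promoter. Neither wildtype group carried the mutation or the transgene, and the Schmid and Cog arrays (3 each) enter here only for the common estimate of the spread and as a separate comparison of the backgrounds. The zone was cut with a scalpel from cryosections and its RNA was amplified in repeated rounds of linear amplification before labelling with Cy3. Strain names beyond the names of the backgrounds were not given in the sources used here, and the Cog mice could hold 1 or 2 copies of the transgene chromosome.

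The hypertrophic zone is the part of the growth plate in which chondrocytes stop dividing, enlarge and secrete collagen X before the cartilage is replaced by bone. A microarray reads each transcript through short DNA probes fixed on glass, so a probe loses signal when less of the transcript is made and also when the transcript lacks, or differs in, the stretch that the probe matches. Mice of unlike genetic backgrounds can differ in either way, and the signal of a single probe cannot tell them apart. Likewise, in tissue RNA fewer cells of a type and less RNA per cell cannot be told apart.

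Selected probes that separated the backgrounds are introduced by their sequences, because the call belongs to the probe, and probes of one gene did not always move together. The selection is not a ranking, and some probes with wide differences, such as those of Deptor and Nedd4, are not in it. Each line gives the middle 30 bases (bases 16 to 45 of 60) of a probe, 5′ to 3′, with the 10 bases around its centre in capitals, where a mismatch to the transcript weakens binding most. Positions are those of build mm7 in the file headers. Bases in the WtSch and WtCog mice themselves were not measured.
Pdxdc1, lower in WtSch, chr16:13381830-13381859 (minus strand): agactgcagtGTTAGAGCCTtagttacacc
Pdxdc1, higher in WtSch, chr16:13382886-13382915 (minus strand): tcaggaagatGACCATTCACaggtagagga
Zfp945, lower in WtSch, within the probe at chr17:21118388-21118446 (minus strand): cttgtcacaaTCAAACAGTGtacctagaaa
Pi4k2b, lower in WtSch, chr5:52141540-52141569 (plus strand): gtaaagcaacTATACCTTCAgtttaaaagc
BC020150, first probe, lower in WtSch, chr9:70582479-70582508 (plus strand): gtttctgttgAAAGGGGAAAgttacttgga
BC020150, second probe, lower in WtSch, chr9:70582562-70582591 (plus strand): tgtaaaccttGGTAAGGACCagtttatttt
Rrp7a, lower in WtSch, chr15:83200515-83200544 (minus strand): atgtaggtatCTGAGCTGTGtatatattac
Rrp7a, higher in WtSch, chr15:83198968-83198997 (minus strand): ttgtcttatcCCTCCCAGCAcctgctgaca
Trim16, higher in WtSch, chr11:62922815-62922844 (plus strand): cataacaagaCTGCACAGGGatcataataa
AK041055, higher in WtSch, chr6:48484391-48484420 (plus strand): ttgaaatctgTATATAAAACataaattacc
None of these 10 probes shared a run of 20 bases with another probe of the array.

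All signals below are log2 values of the background-corrected intensity after quantile normalization, and differences are WtSch minus WtCog. The scanner software marked 48.0 to 59.4% of the probe spots as well above background on the WtSch arrays and 41.0 to 58.5% on the WtCog arrays. Of the 41174 probes, 14613 were above background on all 6 wildtype arrays and 14366 on none. Over the former, the median standard deviation between mice was 0.38 in WtSch and 0.29 in WtCog. Correlations between arrays of one group ran from 0.911 to 0.983 (6 pairs) and those between groups from 0.878 to 0.950 (9 pairs), so the 2 ranges overlapped. WtSch arrays 1 and 2 were scanned in a first session, and WtSch array 3 and all WtCog arrays in a second. The 3 WtCog arrays lay on a slide of their own. Background and scan session could therefore be separated only in part. The WtCog slide held no other group, so it could not be separated from the Cog background.

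Signals common to both wildtype zones came first. Taking the probes within the 100 highest signals on every one of the 6 arrays gave 42 probes of 31 named genes, of which 13 probes belonged to cytosolic ribosomal proteins. None of the 42 was called different between the backgrounds. Probes that had to rank within the 100 highest on every array could hardly differ 2-fold, so this says little about the backgrounds. The signal of a probe also depends on its own sequence, so the order is one of signals and not of transcript numbers. One probe of Myl6, a myosin light chain, led with a mean of 19.16, but it was saturated on all 6 arrays, so its value is only a lower limit.

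Among the cartilage genes, Col11a1, a chain of the fibrillar collagen XI, gave 19.07, 19.11 and 19.07 in WtSch and 18.90, 18.99 and 18.82 in WtCog, with saturation on 3 of the 6 arrays. Comp, a cartilage matrix glycoprotein, gave 19.01, 18.99 and 19.002 against 18.93, 18.96 and 18.78. Acan, the core protein of the large cartilage proteoglycan aggrecan, gave 19.10, 18.92 and 18.76 against 18.77, 18.95 and 18.84. These 3 genes differed between the group means by 0.18 or less. Snorc, a chondrocyte transmembrane proteoglycan, Mfge8, a secreted glycoprotein, and Col2a1, the chief cartilage collagen, stood in the same range, with means over the 6 arrays of 18.98, 18.96 and 18.68. The other genes among the 25 with the highest means included the ribosomal protein genes Rpl32, Rplp2, Rps16, Rps23, Rps26, Rps20 and Rps18, the ubiquitin-like fusion gene Fau, the initiation factor Eif1, the tubulins Tuba1a, Tubb2a and Tuba1c, the superoxide dismutase Sod1, the collagen I chain Col1a2 and the nucleoside diphosphate kinase Nme2. At the edge of the limit, Gpc1, a cell surface proteoglycan, had a lowest rank of 99, whereas Col9a2 and Hapln1, with lowest ranks of 104 and 105, fell just outside.

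**Figure D1:**
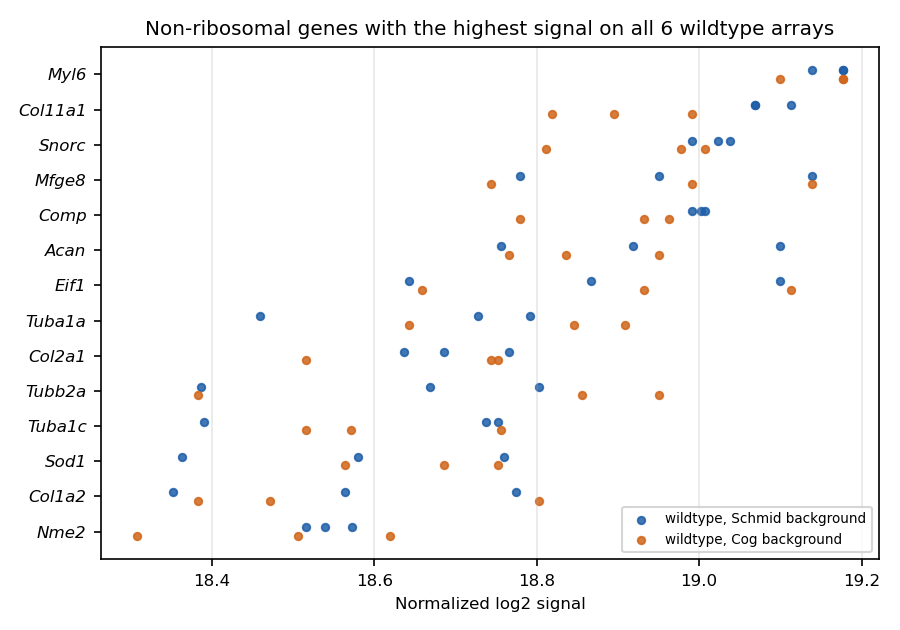
Genes with the highest signal on all 6 wildtype arrays, without ribosomal protein and ubiquitin fusion genes. The x axis gives the normalized log2 signal and each point is one array, in blue for the Schmid background and in orange for the Cog background; all points lie within a narrow range, and 19.16 for Myl6 is the highest mean.

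Of 15 marker genes of hypertrophic chondrocytes, all 15 were above background on all 6 arrays. So were 9 of 10 osteoblast and bone matrix genes, so detection alone does not identify the zone. None of the 15 marker genes was called between the backgrounds. Their median difference was -0.29 (-0.61 without WtSch array 1) beside 0.00 over all probes. Col10a1, the collagen that defines hypertrophic chondrocytes, gave 15.79, 13.91 and 12.99 in WtSch and 14.67, 13.75 and 13.76 in WtCog. Mmp13, a collagenase of the late hypertrophic zone, gave 16.36, 12.97 and 13.02 against 16.64, 13.74 and 14.12. On array 1 of each group, both genes stood above the other 2 arrays of that group. Vegfa, an angiogenic growth factor, had the largest difference of the list, -1.02 (adjusted p = 0.129, limma, n = 3 per group). Ihh, a signal of prehypertrophic chondrocytes, and Pth1r, the receptor for parathyroid hormone-related protein, differed by -0.16 and 0.09.

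Of 19 genes of cartilage matrix and chondrocyte regulation, all were above background on the 6 arrays, none was called, and the median difference was 0.10, which turned to -0.15 without WtSch array 1 and to -0.05 without WtCog array 3. Zone signatures derived from Swiss White mice were matched as well. Of 462 measured genes of the hypertrophic zone signature, 0 were called higher and 4 lower in WtSch, and of 694 genes of the proliferative zone signature 4 were called higher and 2 lower, beside 0.233% and 0.236% of all probes. Their median differences were -0.07 and -0.03.

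Between the backgrounds, 193 probes were called different, which required both a change of at least 2-fold and, in limma, an adjusted p no higher than 0.05. These were 0.469% of all probes. Signal was higher in WtSch for 96 of them (0.233%, 73 named genes) and lower for 97 (0.236%, 75 named genes). In all 193 the values of the groups did not overlap, a property that 18.2% of all probes had. The count depended on which arrays were included. Without WtSch array 1, 479 probes were higher and 331 lower, and these included 90 and 83 of the main calls. Leaving out any other single wildtype array lowered the counts, to between 25 and 46 higher and between 48 and 82 lower. These included 19 to 27 and 46 to 57 of the main calls. With the scan session in the fit, 110 probes were higher and 79 lower, but only 22 and 29 of the main calls were among them. A comparison of array 3 of WtSch with the WtCog arrays of its own scan session, with the spread taken from the WtCog and Cog arrays and the lone array assumed to vary like them, left 3 probes in each direction. With a single array on one side, this count says little about the scan session.

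Fitted fold changes of at least 4 were found for 29 probes, 12 higher and 17 lower in WtSch. Where a group lay at background, the lower bound given below could be under 4-fold. All 29 kept their direction in every alternative processing in which they were tested. As the groups did not overlap, leaving out an array or estimating the spread anew could not have reversed them. The number that stayed called varied. It was 29 with scaling to the 75th percentile after normexp and 24 with the same scaling of the processed signal. It was 16 with the scan session in the fit and 2 with replicate number as a block among the 6 wildtype arrays alone.

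**Figure D2:**
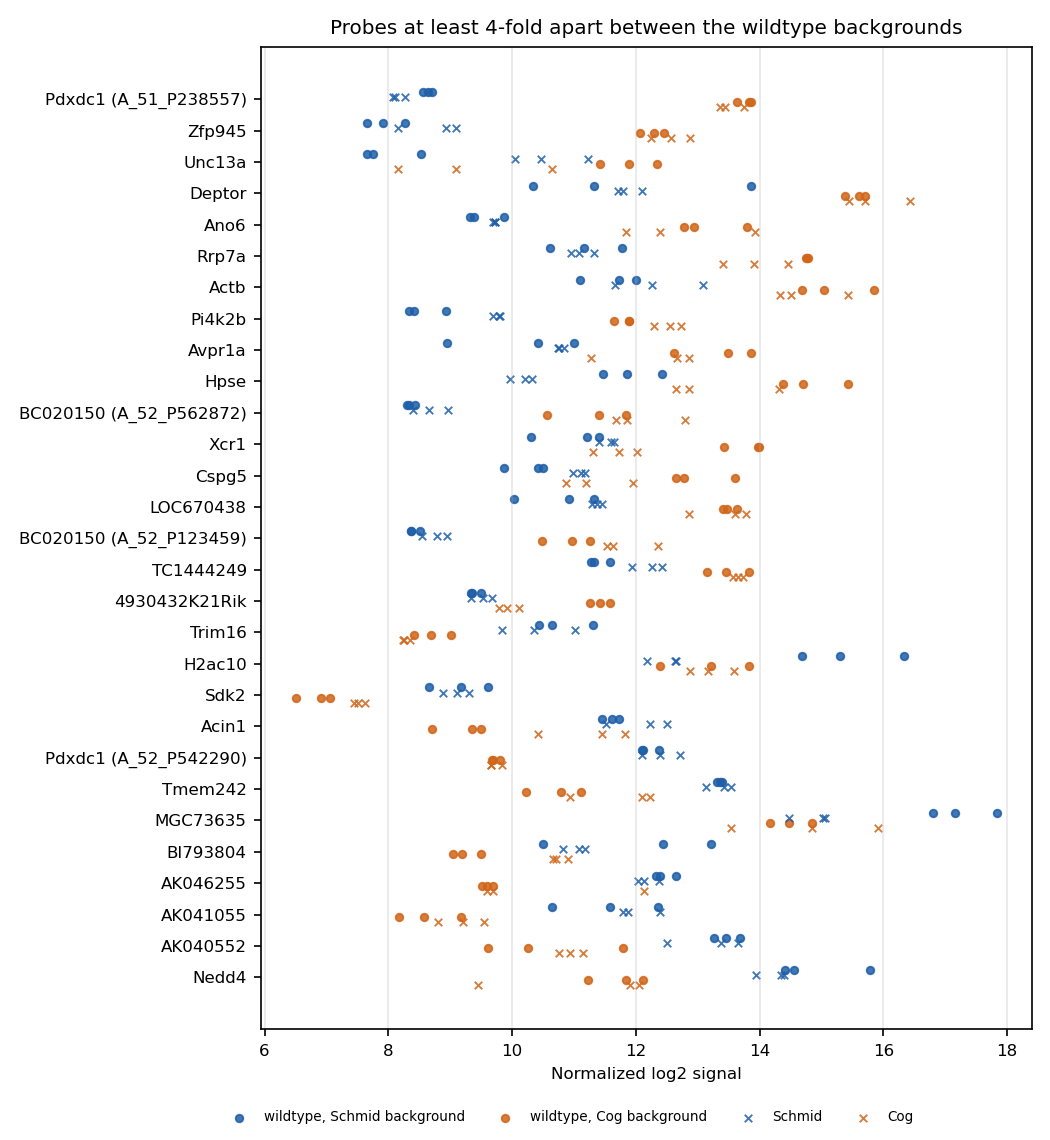
Probes at least 4-fold apart, by the fit, between the wildtype backgrounds. The x axis gives the normalized log2 signal; dots are wildtype arrays and crosses the mutant arrays of the same background (blue, Schmid; orange, Cog), and for Pdxdc1 the crosses fall where the dots of their background do.

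The widest separation was that of Pdxdc1, which encodes a pyridoxal-dependent decarboxylase domain protein. Its probe at chr16:13381815-13381874 gave 8.56, 8.65 and 8.71 in WtSch, where it was never above background, and 13.64, 13.86 and 13.82 in WtCog. Every WtSch array was thus at background and every WtCog array far above it. The fitted difference was -5.13 ± 0.12 (SE, adjusted p = 3.71e-08, limma). As the WtSch values are only an upper limit, WtCog was at least 18.8-fold higher, which is the WtCog mean set against, on each WtSch array, the higher of the probe's own value and the lowest signal that passed as above background. The second Pdxdc1 probe went the other way. It gave 12.11, 12.38 and 12.09 in WtSch and 9.67, 9.69 and 9.80 in WtCog, a difference of 2.47 ± 0.16 (adjusted p = 1.43e-04). One gene thus appeared both lower and higher, depending on the probe.

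Rrp7a, a gene of ribosomal RNA processing, was the other gene with calls in both directions. Its first probe gave 10.61, 11.16 and 11.78 in WtSch and 14.78, 14.75 and 14.77 in WtCog, a difference of -3.59 ± 0.30 (adjusted p = 0.00119). Its second probe gave 11.87, 12.58 and 12.31 against 11.25, 11.17 and 10.88, a difference of 1.15 ± 0.18 (adjusted p = 0.0202). Both separated the groups without overlap, in opposite directions.

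Zfp945, a zinc finger gene, had 4 probes. The one at chr17:21118388-21118446 gave 7.65, 8.27 and 7.91 in WtSch and 12.06, 12.46 and 12.29 in WtCog, and WtCog was at least 6.63-fold higher (difference -4.33 ± 0.26, adjusted p = 1.42e-04). None of the 3 WtSch arrays reached the background limit. The other 3 probes of the gene differed by -0.22, 0.19 and 0.11 and none passed the test. Pi4k2b, a phosphatidylinositol 4-kinase, gave 8.94, 8.41 and 8.33 against 11.64, 11.89 and 11.89, at least 4.81-fold higher in WtCog (difference -3.25 ± 0.17, adjusted p = 5.38e-05). Its other probe was above background on no wildtype array. BC020150 was read by 2 neighbouring probes that moved together. They gave differences of -2.91 ± 0.34 and -2.49 ± 0.24 (adjusted p = 0.00728 and 0.00276), and WtCog was at least 3.31-fold and 2.57-fold higher.

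Other named probes at least 4-fold lower in WtSch are given next. Deptor, an inhibitor of the kinase mTOR, gave 13.86, 10.34 and 11.32 in WtSch and 15.61, 15.39 and 15.70 in WtCog (difference -3.73 ± 0.69, adjusted p = 0.0401), with WtSch array 1 closest to WtCog, and its second probe differed by -0.37. Ano6, a membrane lipid scramblase, gave 9.88, 9.31 and 9.39 against 13.79, 12.94 and 12.78 (-3.64 ± 0.45, adjusted p = 0.00922), and its second detected probe differed by -0.22. A probe that the array annotation assigns to Actb, the gene of cytoplasmic β-actin, but places on the X chromosome differed by -3.58 ± 0.44 (adjusted p = 0.00872). The Actb probe on chromosome 5 differed by -0.05 and was not called. Avpr1a, a vasopressin receptor, and Hpse, which cleaves heparan sulfate, each had only 1 probe and differed by -3.20 ± 0.55 and -2.92 ± 0.43.

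Unc13a, a gene of synaptic vesicle release, Xcr1, a chemokine receptor, and Cspg5, a chondroitin sulfate proteoglycan, were also on this side. Their differences were -3.91 ± 0.56, -2.82 ± 0.29 and -2.75 ± 0.31 (adjusted p = 0.0156, 0.00358 and 0.00651). In each, all 3 WtSch values lay below all 3 WtCog values. The Unc13a probe was above background on no WtSch array, so its difference is a fitted value and WtCog was at least 5.07-fold higher, while the second Unc13a probe, detected on all 6 arrays, differed by -0.23 and was not called. 4930432K21Rik gave 9.34, 9.49 and 9.35 against 11.57, 11.27 and 11.42 and was at least 3.68-fold higher in WtCog (adjusted p = 1.66e-04), and its second probe differed by 0.23 and was not called.

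On the side higher in WtSch, Nedd4, which encodes a ubiquitin ligase, had the largest difference. It gave 15.78, 14.56 and 14.41 in WtSch and 12.12, 11.85 and 11.22 in WtCog, a difference of 3.19 ± 0.63 that lay at the edge of the threshold (adjusted p = 0.0496). Its other probe differed by -0.43 and was not called. Tmem242, a mitochondrial membrane protein gene, gave 13.39, 13.32 and 13.36 against 11.11, 10.79 and 10.23 (2.64 ± 0.32, adjusted p = 0.00872), and its other probe differed by 0.20.

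Acin1, a gene of the exon junction complex, gave 11.73, 11.46 and 11.62 in WtSch and was above background on no WtCog array, at least 4.72-fold higher in WtSch (2.42 ± 0.36, adjusted p = 0.0182). Its other 3 probes differed by 0.76, -0.47 and -0.23. Trim16, which encodes a tripartite motif protein, gave 10.65, 10.43 and 11.30 against 8.69, 9.01 and 8.41, at least 2.51-fold higher in WtSch (2.09 ± 0.30, adjusted p = 0.0163). Its other 2 probes were above background on no wildtype array. AK041055 gave 10.65, 11.58 and 12.36 against 9.17, 8.57 and 8.17 and was at least 4.63-fold higher in WtSch (2.89 ± 0.41, adjusted p = 0.0144). Sdk2, a cell adhesion gene, was called at a difference of 2.33 ± 0.23, but its probe was above background on none of the 6 arrays, so no level can be given. With the scanner's processed signal its difference fell to as little as 0.23.

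Further genes among the 12 with the largest folds in this direction were 2610042L04Rik (1.91), Ppox, an enzyme of heme synthesis (1.88), and Micu2, a regulator of mitochondrial calcium uptake (1.82, at least 2.43-fold). The 3 others were the histone genes H2ac10 (2.30), H2bu2 (1.87) and H2bc14 (1.84). Of 67 histone probes, a group formed after the values had been seen, 3 were called higher (4.48%, beside 0.233% of all probes) and none lower, with a median difference of 0.20. The histone calls stood near the threshold, with adjusted p of 0.0429, 0.0452 and 0.0491 (limma). In WtSch their highest values were all on array 2. There the H2bu2 probe gave 12.99, 14.30 and 13.02 and the H2bc14 probe 13.19, 14.53 and 13.16. Their calls may therefore not be independent. The other probe of H2ac10 differed by 1.01 and was not called. A further probe was matched to H2bu2, but the array annotation names it Hist3h2ba, on the opposite strand, and the called probe Hist3h2bb. It differed by 0.88 and was not called, and may not read the same gene.

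**Figure D3:**
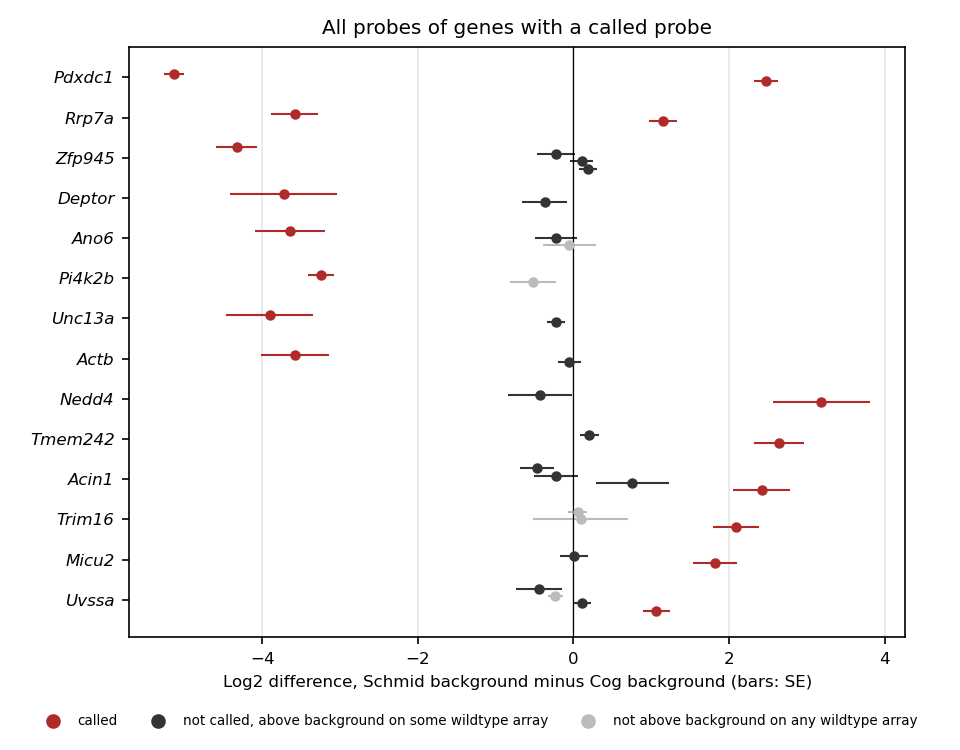
All probes of genes that had a called probe. The x axis gives the log2 difference, WtSch minus WtCog, with its standard error; red points were called, black points were not called but above background on some wildtype array, and grey points were above background on none. In Pdxdc1 the 2 red points lie at -5.13 and 2.47, and in Zfp945 the called probe lies at -4.33 while the other 3 lie near 0.

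The disagreement between probes of one gene was common. The 193 called probes belonged to 146 named genes, 85 of which had several probes. In only 2 of the 85 were all probes called in the same direction, in 2 they were called in opposite directions (Pdxdc1 and Rrp7a), and in 43 another probe that was above background was not called. Jam2, a junctional adhesion molecule chosen after its values were seen, was one of the genes whose probes moved together. Its probes gave 14.79, 14.51 and 14.53 against 16.23, 16.23 and 16.11, and 8.96, 8.61 and 9.07 against 10.46, 10.74 and 10.12. The first differed by -1.58 (adjusted p = 0.0466). The second was above background on no WtSch array and was at least 1.87-fold higher in WtCog (adjusted p = 0.00939).

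Probes that were on in one background and off in the other were counted next. On meant well above background on all 3 arrays of a group, and off on none of 3. By these marks alone 159 probes were on in WtSch and off in WtCog, and 50 the reverse. Of these, 20 (0.0486% of all probes) and 19 (0.0461%) were also called. Only 1 of the 39 shared a run of 20 bases with another probe of the array. The 39 included Pdxdc1, Zfp945, Pi4k2b, Unc13a, BC020150 and 4930432K21Rik, on in WtCog, and Acin1, Trim16, AK041055 and Micu2, on in WtSch. Lower bounds for the rest of the named genes were smaller. On in WtSch were Barhl2, a homeobox gene (at least 2.25-fold), Met, the receptor for hepatocyte growth factor (2.24), 4930417O22Rik (2.10), Lgi2 (2.04), Itgal, a leukocyte integrin chain (1.81), and Uvssa, a gene of transcription-coupled DNA repair (1.43). On in WtCog were Arhgef6, a guanine nucleotide exchange factor (2.08), the vomeronasal receptor Vmn1r89 (2.04) and Rassf2 (1.96).

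Of the 26 named genes with an on/off call, 21 had several probes, and in 12 of these another probe above background was not called. For Lgi2 the called probe gave 10.41, 10.38 and 10.66 against 8.998, 8.997 and 8.934, whereas its second probe was above background on no array. For Micu2 the called probe gave 10.44, 10.95 and 11.38 against 9.19, 9.55 and 8.57, whereas the brighter probe of the gene gave 13.07, 13.09 and 13.04 against 13.48, 12.63 and 13.08. The latter values overlapped, with a difference of 0.01.

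The position of spots on the array differed between these sets. Rows 1 to 159 held 30.0% of all probes, 43.8% of the probes called higher in WtSch and 15.5% of those called lower. Of the on/off probes they held 65% of those on in WtSch and 15.8% of those on in WtCog. After a smooth trend over rows and GC content was taken out of each array, 56 probes were called higher and 72 lower, and 10 instead of 20 were on in WtSch. The part of array position in single calls was not tested further.

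Whether the differences followed the background was examined by comparing the 3 Schmid arrays with the 3 Cog arrays in a fit of their own. The values of these arrays did not enter the wildtype differences, but they did enter the estimate of the spread behind the 193 calls. With the spread estimated from the 6 wildtype arrays alone, 2 probes were called higher and 4 lower in WtSch. These mice differ in mutation as well as in background, and their arrays lay on different slides and in different scan sessions, so those factors cannot be told apart. Between the mutants 4.91% of all probes were called higher in Schmid and 4.31% lower.

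The result depended on the size of the wildtype difference. Of the 29 probes at least 4-fold apart by the fit, 27 had the same direction in the mutants. In that direction 20 were called, and 0 in the opposite one. Of the 164 probes between 2-fold and 4-fold apart, 55 had the same direction, 24 were called in that direction and 28 in the opposite one. Leaving out single mutant arrays or changing the processing moved the number of 4-fold probes called in the same direction between 16 and 21, and to 9 when the test was made against a 2-fold change. A call in the opposite direction appeared for 1 of the 29, without Cog array 2.

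**Figure D4:**
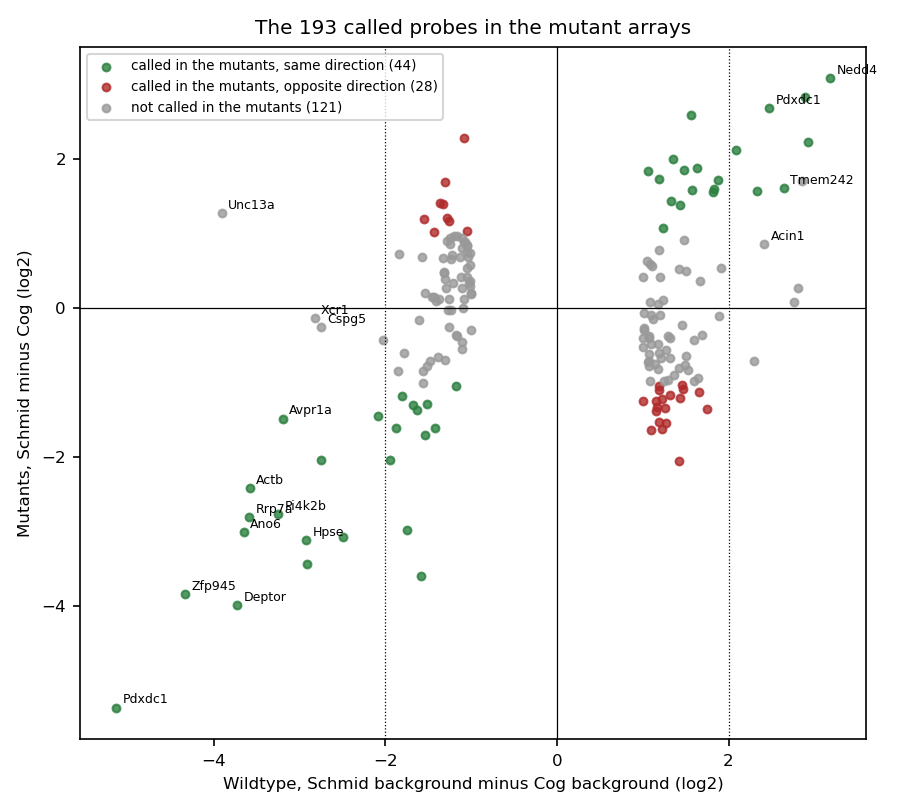
The 193 called probes in the mutant arrays. The x axis gives the wildtype difference, WtSch minus WtCog, and the y axis the mutant difference, Schmid minus Cog, both in log2; green points (44) were called in the mutants in the same direction, red points (28) in the opposite direction, and grey points (121) were not called. Beyond the dotted lines at 4-fold no red point is found.

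For Pdxdc1, the first probe gave 8.27, 8.08 and 8.10 in Schmid and 13.37, 13.44 and 13.74 in Cog, a mutant difference of -5.37 (adjusted p = 1.19e-04). Schmid was at background here, so the signal in Cog was at least 23.2-fold higher. The second gave 12.71, 12.09 and 12.38 against 9.65, 9.84 and 9.65, a mutant difference of 2.68 and at least 5.83-fold higher in Schmid. Both probes thus stood at about the levels of the wildtype mice of the same background. The called Zfp945 probe and the BC020150 probes were above background on no Schmid array and were at least 9.93-fold, 8.01-fold and 6.23-fold higher in Cog. Other Zfp945 probes went the opposite way in the mutants. One detected on all arrays differed by 1.21 and was called (adjusted p = 0.0307, limma). Another, above background on no Cog array, had a fitted difference of 1.59 and was called (adjusted p = 0.00108, limma). The remaining Zfp945 probe differed by -0.09 and was not called. Pi4k2b differed by -2.76 in the mutants, Deptor by -3.99, Ano6 by -3.01 and Hpse by -3.12, and all of these were called. The 2 probes of Rrp7a separated. The first remained lower in Schmid, by -2.81, whereas the second, higher in WtSch, was lower in Schmid than in Cog by -1.24, and both were called.

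Among the probes higher in WtSch, Nedd4 differed by 3.08 and Tmem242 by 1.61 in the mutants, both called. AK041055, Trim16 and Micu2 were called too, but were above background on no Cog array, and they were at least 4.54-fold, 1.48-fold and 1.82-fold higher in Schmid. AK046255, a probe on the X chromosome, differed by 1.71 and was not called. Its Cog values were 9.59, 12.13 and 9.69, so that array 2 of Cog stood with the Schmid arrays (12.38, 12.04 and 12.13). Xcr1 and Cspg5 did not keep their differences, with -0.13 and -0.25 in the mutants (adjusted p = 0.654 and 0.533).

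The on/off marks were looked up in the mutants as well. Of the 20 probes on in WtSch, 6 were above background on all 3 Schmid arrays and on none of the Cog arrays, a pattern of 8.04% of all probes. Of the 19 on in WtCog, 5 had the reverse pattern, which 0.219% of all probes had. Of these 11 probes, 10 were also called in the mutants in the same direction. They were Pdxdc1, Zfp945, both BC020150 probes and TC1541724 on the Cog side, and Trim16, Micu2, Uvssa, AK041055 and ENSMUST00000098674 on the Schmid side. Lgi2 kept its marks, but its mutant difference of 0.49 was not called (adjusted p = 0.169).

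Altogether 44 of the 193 probes, of 35 named genes, were called in the same direction in wildtype and mutant mice. Besides the genes above, and chosen after their values were seen, they included bright and well-measured probes. Timp3, an inhibitor of matrix metalloproteinases, gave 15.69, 14.93 and 14.89 in WtSch and 17.33, 16.77 and 17.04 in WtCog, a difference of -1.87, and -1.61 in the mutants. Npr3, the clearance receptor for natriuretic peptides, gave 11.65, 11.91 and 12.09 against 13.32, 13.96 and 13.62, a difference of -1.75, and -2.98 in the mutants. In both genes the groups were well apart. The bright Jam2 probe, at -1.58, differed by -3.60 in the mutants, whereas the second Jam2 probe differed by -0.84 there and was not called.

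In the other direction, Cd47, an integrin-associated protein, gave 14.50, 14.11 and 14.19 in WtSch and 12.70 and 12.65 on WtCog arrays 2 and 3, with array 1 also below every WtSch value, a difference of 1.48, and 1.85 in the mutants. Its other 3 probes were not called. Srebf1, a transcription factor of lipid synthesis, gave 14.95, 14.68 and 14.50 against 13.07, 13.39 and 13.59, a difference of 1.36, and 2.01 in the mutants. The histone genes H2bu2 and H2bc14 differed by 1.72 and 1.60 in the mutants and were called, whereas H2ac10 differed by -0.71 and was not. The median over the 67 histone probes was -0.14 in the mutants.

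By chromosome, the largest share of called probes among the numbered chromosomes was on chromosome 15, picked after the values had been seen. It held 19 called probes of 1558 (1.22%, beside 0.469% of all probes), 12 higher and 7 lower. Of the 19, 5 were called in the same direction in the mutants. Deptor, Rrp7a and Ano6 supplied its 4-fold calls, and Npr3 and Krt5 were also among the 19. Olfactory and vomeronasal receptors, again grouped after the values had been seen, had 1082 probes, of which 2 were higher (0.185%) and 10 lower (0.924%) in WtSch, beside 0.233% and 0.236% of all probes, and none of the 12 was called in the same direction in the mutants.

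Genes known to vary between laboratory strains were looked up as a list. Of 9 such genes, including Nnt, Glo1, Alad and Entpd4, none was called and the median difference was -0.01. Glo1 came closest, with 15.60, 15.74 and 15.83 in WtSch and 15.20, 15.05 and 15.08 in WtCog (difference 0.62, adjusted p = 0.133). None of 36 genes of the major histocompatibility complex was called. Nor was any of 12 interferon response, 15 endoplasmic reticulum stress or 83 cytosolic ribosomal protein genes. Outside these lists, Syvn1, which the study names as a regulator of the unfolded protein response, had a called probe on in WtCog (fitted difference -1.01). Its other probe, above background on all 6 arrays, differed by 0.41 and was not called. Of 5 sex-linked genes, each read by its brightest probe, none was called. The Y-linked Ddx3y, Eif2s3y and Kdm5d were above background on all 6 wildtype arrays, and 1 of the 5 was above background on none.

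Markers of other cell types were examined in the same way. All 12 neutrophil granule genes had a positive difference, with a median of 1.47, but the mean over the list was 13.05, 11.91 and 9.94 on the WtSch arrays and 9.83, 10.08 and 10.11 on the WtCog arrays. Only WtSch arrays 1 and 2 stood out, and the median was 0.85 without array 1 and 2.31 without array 3. S100a8, a calcium-binding protein of neutrophils, gave 15.40, 14.27 and 9.82 in WtSch and 9.53, 10.73 and 10.62 in WtCog (adjusted p = 0.374). Fcnb, a ficolin, was the only gene of the list that was called, with 10.21, 9.25 and 9.68 against 8.39, 8.54 and 8.50 (adjusted p = 0.0240). It was above background on 2 WtSch arrays and on no WtCog array, and was at least 1.32-fold higher in WtSch.

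For red cell genes, 10 of 10 differences were positive, with a median of 1.27 (0.85 without WtSch array 1), and none was called. Their list means were 13.13, 12.89 and 11.89 in WtSch and 11.61, 11.65 and 11.31 in WtCog, without overlap. Skeletal muscle genes had list means of 13.72, 14.43 and 13.48 against 11.23, 11.83 and 14.998, so that WtCog array 3 was the highest of all. Their median difference was 1.08, but 0.30 without WtCog array 1 and 2.21 without WtCog array 3, and none of the 9 was called. The part of these cells in the called probes was not tested. Lymphoid genes had a median difference of 0.61, which rested on WtSch array 1 (list mean 11.92, beside 10.77 and 10.29 on the other WtSch arrays) and was -0.02 without it. Of the 10 genes, the T cell receptor component Cd3e was called lower (-1.43, adjusted p = 0.00210). Of 5 keratinocyte genes (median difference 0.23) only Krt5 was called, at -1.28 (adjusted p = 0.00707), while Krt14 differed by 0.76.

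No gene was called in the lists for osteoblast and bone matrix (10 measured), osteoclast (11), endothelial (11), cell cycle (12), adipocyte (5) or immediate early genes (11), and their median differences lay between -0.24 and 0.17. That of the cell cycle genes turned from 0.17 to -0.30 without WtSch array 1.

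**Figure D5:**
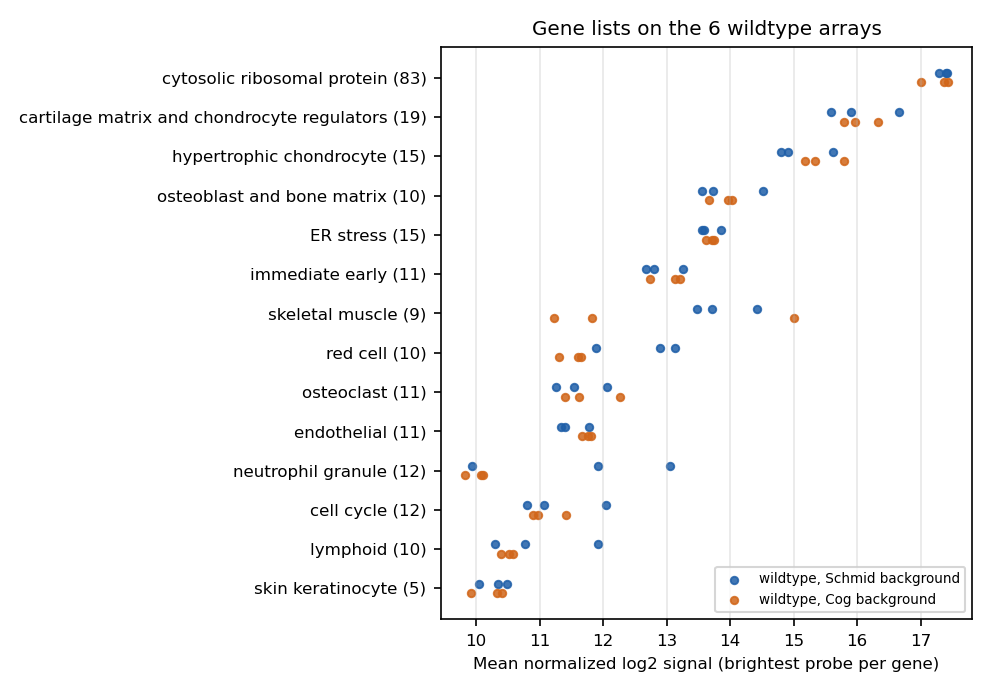
Gene lists on the 6 wildtype arrays. The x axis gives the mean normalized log2 signal over the genes of a list, with the brightest probe of each gene and the number of genes in parentheses; each point is one array. For neutrophil granule genes, 2 WtSch arrays (13.05 and 11.91) lie apart from the other 4.

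The stability of single calls differed widely. Over 20 alternative settings, among them leaving out each wildtype array in turn, the lower Pdxdc1 probe and Zfp945 stayed called in all 20. Of the other probes named above, Pi4k2b and the higher Pdxdc1 probe stayed called in 19, 4930432K21Rik in 18, Rrp7a (first probe) in 17, both BC020150 probes in 16, Ano6 and Tmem242 in 15, Trim16 in 14, AK041055 in 13, Hpse and Acin1 in 11, Avpr1a in 9, Itgal and 4930417O22Rik in 8, Deptor and the 3 histone probes in 7, Nedd4 and Uvssa in 6 and Arhgef6 in 4. None of them changed direction in any of the 20, but most of these settings could not reverse groups that do not overlap.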

How the data were processed

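RNA of 12 mice was hybridized to single-colour Agilent whole mouse genome arrays. The authors deposited the scanner output (Agilent Feature Extraction 9.5.3, per the submitters' processing notes), with the mean intensity and local background intensity of each of 45018 spots per array, before any normalization between arrays. They also deposited a matrix of normalized log2 values, which was used as an alternative.

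Here, following the study's methods, intensities were corrected with normexp (offset 50) and quantile normalized over the 12 arrays without controls, and spots of a probe were averaged. Leaving out outlier-flagged spots was a step added here. Group means of 4 groups were fitted with limma (3.58.1, R 4.3.3; 8 residual degrees of freedom), with Benjamini-Hochberg adjustment over 41174 probes. The mutant comparison was fitted on the 6 mutant arrays alone. The labels do not say more than that each array stands for 1 mouse.

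Named genes were the 25 with the highest signal, the 12 largest folds each way among non-overlapping calls, the 8 on/off genes with the largest bound each way, on/off probes whose marks recurred in the mutants, called list members and sex-linked genes; probes without a symbol were named by their array name. Gene names came from accessions (23076 probes), symbols (6583) and older symbols (3074); 8441 probes had none. The members and gene lists were chosen with earlier results of these data known. Bglap2, Hbb-b2 and Ahsp were not matched. A few genes that these rules would name are not reported here. No genome of build mm7 was used, so exons and untranslated regions are not stated.

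The fit of WtSch against WtCog was checked on simulated arrays of 41141 probes. Among 200 probes given a log2 difference of 3, the calls found 97%, beside 5 false calls. At a difference of 1.5 they found 62%, beside 7 false calls. The simulated noise was independent between probes, without deviations of an array or slide that many probes share. These false calls therefore do not give the error among the real calls. With 3 arrays per group, precision is limited by their number.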

Additional observations from a re-analysis of the deposited data

Results flagged for a closer look

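Among the probes named by rule, 9 are given here for which the wildtype difference (WtSch minus WtCog) and the mutant difference (Schmid minus Cog) had opposite signs and differed from each other in an interaction test (limma, all 12 arrays). These probes had been chosen by their wildtype difference, which is also part of the interaction, and by the opposite signs. The size of the interaction and its adjusted p therefore partly restate that choice and are no independent test. The values are log2, and genotype, slide and scan session cannot be told apart from background in the mutants. Over all 193 called probes, these included, 28 were called in opposite directions in the 2 comparisons. Of the 9, all but Ppox and Hist1h2af were above background on no array of one wildtype group, so their differences and interactions are fitted values. Met differed by 1.47 in the wildtype and by -1.08 in the mutant comparison, an interaction of 2.55 (adjusted p = 4.14e-04). Another detected Met probe differed by -0.02 in the wildtype and by 2.22 in the mutant comparison, and was called in the latter. Unc13a differed by -3.91 and 1.28, an interaction of -5.19. 4930417O22Rik differed by 1.499 and -0.64, an interaction of 2.14. Ppox differed by 1.88 and -0.10, an interaction of 1.99, and its mean was 9.71 in WtCog beside 11.6, 10.99 and 11.1 in WtSch, Schmid and Cog. Rassf2 differed by -1.23 and 0.65, an interaction of -1.88. The vomeronasal receptor V1rj2 (Vmn1r89) differed by -1.55 and 1.20, an interaction of -2.75. E130309B19Rik (Barhl2) differed by 1.46 and -1.03, an interaction of 2.49. Arhgef6 differed by -1.08 and 0.12, an interaction of -1.19. Hist1h2af (H2ac10) differed by 2.30 and -0.71, an interaction of 3.01, and its mean of 15.4 in WtSch stood above 13.1, 12.5 and 13.2 in WtCog, Schmid and Cog.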

How the results depend on the processing

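Counts are probes higher and lower in WtSch (96 and 97), then probes on in WtSch and on in WtCog (20 and 19). The processed signal with quantile normalization gave 173 and 178, with 59 on in WtSch. Scaling to the 75th percentile gave 29 and 42 (6 and 9 on/off) after normexp and 61 and 98 (44 on in WtSch) for the processed signal, so the higher share moved from 49.7% to 40.8% and 38.4%, and the latter shifted the median of all probes by -0.12. The 6 wildtype arrays alone gave 2 and 4 (0 and 4 on/off), a test against 2-fold 1 and 5 (0 and 4), array weights 435 and 401 (45 on in WtSch), slide as a random block 245 and 203 (33), and removal of position and GC trends 56 and 72 (10). Leaving out 1 array gave 25 to 479 higher, 48 to 331 lower, 7 to 48 on in WtSch and 12 to 63 on in WtCog, and the highest of each came without WtSch array 1. Chosen after seeing the data, the scan session as a block gave 110 and 79 (9 on in WtCog), and the second session alone 3 and 3 (1 and 3). The matrix (88 and 83) and a filter on dim probes (102 and 102) stayed near the main counts.

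With replicate number as a block, the fit of 12 arrays gave 92 and 84, and the fit of the 6 wildtype arrays gave 0 and 2 (0 and 2 on/off). Deviations of same-numbered wildtype arrays correlated by 0.41, 0.05 and 0.19 over all probes and by 0.50, 0.12 and 0.27 over the 12805 probes above background on all 12 arrays. WtSch array 2 correlated best with WtCog array 3 (0.46). The labels do not tie the numbers to a litter or a day.

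In the mutants, the test against 2-fold left 1 instead of 5 of the probes on in WtSch. The limit of 100 for the brightest probes gave 42, a limit of 50 gave 15 and a limit of 200 gave 92. Over the probes named by rule, 494 of the alternative values stayed called, 285 no longer passed and 0 reversed. The groups of these probes did not overlap, so most settings could not have reversed them. The cause of the lost calls was not tested. Probes near background give only bounds, and a probe below background in both groups carries no level.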
